A study of Saccharomyces cerevisiae with 12 samples.

Results

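Intergenic regions between tandem genes are the stretches of DNA that separate a gene from the next gene on the same strand, so that the 3′ end of the upstream gene faces the promoter of the downstream gene. They were taken as gaps of at least 100 bp between adjacent nuclear protein-coding genes of Saccharomyces cerevisiae that carry the same strand letter (W or C) in their systematic names and have no other annotated gene between them. The RefSeq table of build R64 gave 2576 such gaps among 5227 gaps of all orientations, 1304 between W genes and 1272 between C genes. Pol II was mapped by chromatin immunoprecipitation of the FLAG-tagged subunit Rpb3 followed by sequencing, in a wild-type strain and in dbp2Δ, in which KanMx6 replaces the gene of the DEAD-box RNA helicase Dbp2. Both strains were MATa and carried the his3, leu2, met15 and ura3 deletions and the 3XFLAG tag. They were grown in YP medium with 2% glucose at 30 °C and fixed with 1% formaldehyde for 15 min. The 12 libraries were 3 immunoprecipitates and 3 inputs of each strain, which the authors pooled before peak calling, so that the deposited result is a single peak list for each genotype. No spread between replicates can be computed from pooled lists, so no difference between the strains was tested, and all values below describe 1 list each.

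RNA polymerase II transcribes beyond the last codon of a gene, and cleavage and polyadenylation of the transcript are followed by release of the enzyme from the DNA. Between tandem genes this release has to take place upstream of the next promoter, since polymerase that reads on can interfere with initiation there. Dbp2 is an RNA helicase that associates with transcribed chromatin and takes part in the assembly of messenger ribonucleoprotein particles. Because the annotated gene spans are coding regions, each gap holds the 3′ untranslated region of the upstream gene, the intergenic DNA proper and the promoter and 5′ untranslated region of the downstream gene.

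The pooled immunoprecipitates held 3648848 fragments in wild-type cells and 4030024 in dbp2Δ after removal of duplicates, and the recorded fragment sizes were 260 and 290 bp. The lists held 1642 and 1628 peaks with median lengths of 886 and 988.5 bp. Depth, fragment size and peak length thus moved with the strain, and their part in the values below was not tested. The coding region of DBP2 lay in peaks over 100% in wild-type cells and 0% in dbp2Δ. HIS3, LEU2, MET17 and URA3 were covered over 0% in both lists. The a-specific genes MFA1, MFA2 and STE2 were covered over 100% in both lists and BAR1 in the wild type only, whereas MF(ALPHA)1, MF(ALPHA)2 and STE3 of the opposite mating type were covered over 0%.

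Most tandem gaps carried no peak. In the wild-type list 1575 gaps were covered over 0% of their length, 315 over less than 50%, 266 over at least 50% but not completely, and 420 completely. In the dbp2Δ list the corresponding numbers were 1638, 274, 262 and 402. At least 50% of the gap was covered in 686 gaps (26.6%) of the wild-type list and 664 (25.8%) of the dbp2Δ list. Over gaps of all orientations these shares were 26.1% and 26.8%, so the overall share of tandem gaps lay near that of gaps in general. Complete coverage was found in 16.3% and 15.6% of tandem gaps against 17.9% and 19.6% of all gaps, and absence of coverage in 61.1% and 63.6% against 61.4% and 62.2%. The median tandem gap was 389 bp long, with quartiles of 280 and 571 bp. The gaps added up to 1345418 bp, of which 23.2% lay in wild-type and 22.6% in dbp2Δ peaks, or 14.0% and 12.6% of all peak bp.

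Coverage of a gap varied with which of its neighbours carried Pol II. A gene was counted as covered when at least 50% of its length lay in peaks, and the gap and its neighbours were read from the same list, so the 2 measures are not independent. In the wild type only the upstream gene was covered for 348 gaps, only the downstream gene for 340, both for 169 and neither for 1719. In dbp2Δ these classes held 321, 367, 177 and 1711 gaps. The median share of the gap in peaks was 79.5% in wild-type cells and 93.4% in dbp2Δ beside a covered upstream gene alone, and 48.4% and 42.6% beside a covered downstream gene alone. With both neighbours covered the median was 100% in both lists, and with neither covered it was 0% in both. Signal in a tandem gap was therefore more extensive on the side where transcription leaves a gene than on the side where it enters one, in either list.

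**Figure D1:**
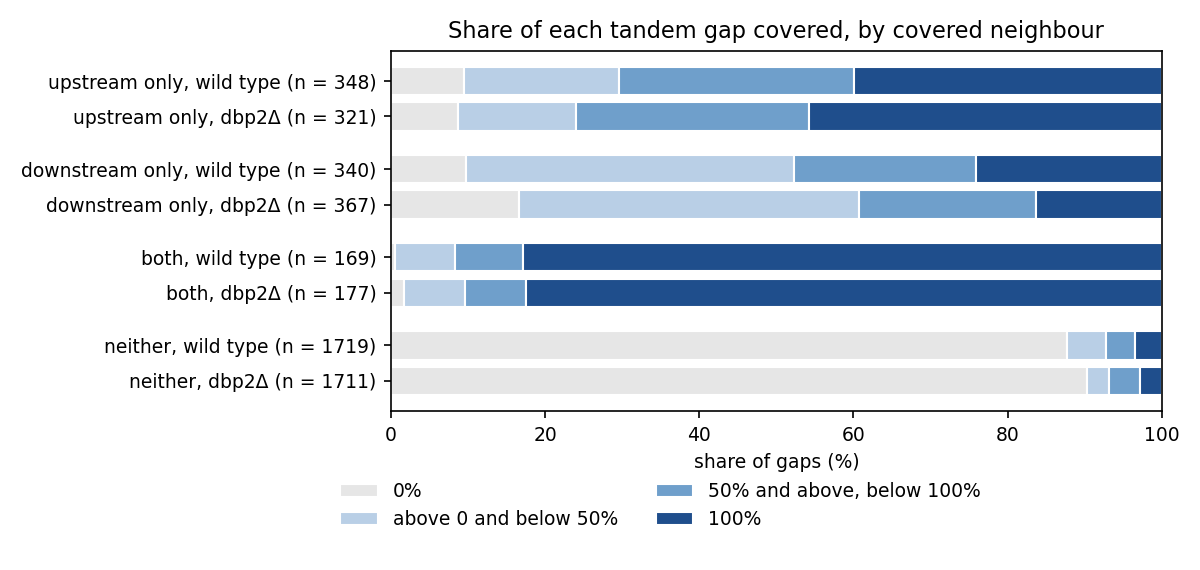
Each bar shows the share of tandem gaps (x axis, percent) that were covered by peaks over 0%, less than 50%, at least 50% or 100% of their length, for gaps with only the upstream, only the downstream, both or neither neighbouring gene covered, in the wild-type and dbp2Δ lists. Complete coverage was found in 39.9% (wild type) and 45.8% (dbp2Δ) of gaps with only the upstream gene covered and in 24.1% and 16.3% of gaps with only the downstream gene covered.

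For the strains to be set side by side on the same gaps, gaps were taken that kept their class in both lists. There were 254 with only the upstream gene covered, 271 with only the downstream gene, 124 with both and 1591 with neither. Another 66 gaps had only the upstream gene covered in wild-type cells and neither in dbp2Δ, and 49 went from neither to upstream only. The corresponding numbers were 49 and 68 for the downstream gene. A pair of covered neighbours in the wild type became upstream only in 17 gaps and downstream only in 23, and the reverse applied to 23 and 19 gaps.

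Past the 3′ end of the upstream gene, peaks reached farther in the dbp2Δ list. Of the 254 gaps with only the upstream gene covered, 117 had more bp in dbp2Δ peaks, 36 had more in wild-type peaks and 101 had equal numbers. Over gaps of all orientations and classes, 13.9% had more bp in dbp2Δ and 16.2% more in the wild type. The median share of the gap in peaks was 80.3% in wild-type cells and 97.7% in dbp2Δ, and the gap was completely covered in 100 and 123 cases. The peak that held the last base of the upstream gene ended a median of 392 bp beyond it in the wild type (234 gaps) and 435 bp beyond it in dbp2Δ (237 gaps). These medians include peaks that ran through the gap into the downstream gene. In the 100 gaps where this peak ended inside the gap in both lists, the edge lay a median of 337.5 bp past the gene in the wild type (quartiles 230 and 434 bp) and 384.5 bp in dbp2Δ (301 and 468 bp). It lay farther out in dbp2Δ in 76 of the 100 gaps and nearer in 24, with a median difference of 47 bp and quartiles of 4.25 and 94.2 bp.

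The share of gaps with a peak was lower at greater distance from the upstream gene. At the first base past the gene a peak was present in 92.1% of the 254 gaps in wild-type cells and 92.9% in dbp2Δ. At 200 bp the shares were 81.0% and 89.1% of 247 gaps, at 300 bp 70.4% and 82.4% of 199 gaps, and at 400 bp 51.7% and 61.9% of 147 gaps. At 500 bp they were 34.9% and 49.4% of 83 gaps, and at 600 bp 25.0% and 29.4% of 68 gaps. The lists lay close together at the gene end and farthest apart between 200 and 500 bp. At the opposite border of the same gaps, the last base before the downstream gene, a peak was present in 40.2% of gaps in wild-type cells and 49.2% in dbp2Δ.

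Before the 5′ end of the downstream gene the order of the lists was the opposite. Of the 271 gaps with only the downstream gene covered, 72 had more bp in dbp2Δ peaks, 160 had more in wild-type peaks and 39 had equal numbers. The median share of the gap in peaks was 49.1% in wild-type cells and 42.8% in dbp2Δ, and the gap was completely covered in 64 and 35 cases. The peak over the first base of the downstream gene began a median of 224.5 bp before it in the wild type (252 gaps) and 192 bp before it in dbp2Δ (238 gaps). In the 162 gaps where it began inside the gap in both lists, the edge lay 184.5 bp and 172 bp before the gene. It was nearer to the gene in dbp2Δ in 104 of these gaps, farther in 57 and equal in 1, with a median difference of -14 bp and quartiles of -39 and 11 bp.

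At the last base before the downstream gene a peak was present in 93.0% of the 271 gaps in wild-type cells and 87.5% in dbp2Δ. The shares were 73.4% and 71.6% at 100 bp, 56.7% and 43.7% of 252 gaps at 200 bp, 34.2% and 22.3% of 193 gaps at 300 bp, and 25.5% and 14.6% of 137 gaps at 400 bp. At 600 bp they were 24.2% and 25.8% of 66 gaps. Peaks at the far border, the first base past the uncovered upstream gene, were present in 26.2% and 17.3% of gaps. Peaks of the dbp2Δ list were longer as a whole, while their edges on the promoter side lay closer to the gene.

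**Figure D2:**
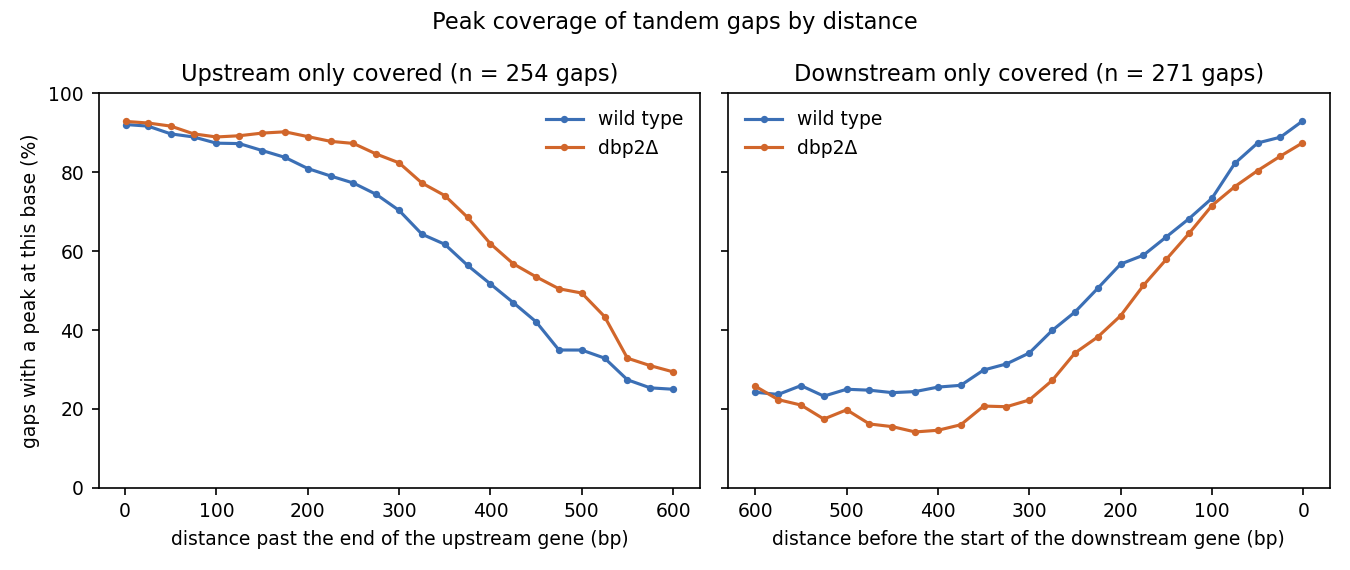
The y axis gives the percent of tandem gaps with a peak at a given base, against the distance in bp from the end of the upstream gene (left, 254 gaps with only the upstream gene covered in both lists) or to the start of the downstream gene (right, 271 gaps with only the downstream gene covered in both lists), over gaps at least that long. The dbp2Δ line lies above the wild-type line past the upstream gene (82.4% against 70.4% at 300 bp) and below it before the downstream gene (22.3% against 34.2% at 300 bp), except at 600 bp before that gene (25.8% against 24.2%).

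Most gaps between covered neighbours were filled. Of the 169 such gaps in the wild type 140 were completely covered, as were 146 of 177 in dbp2Δ, each by 1 peak that ran from the upstream into the downstream gene. Of the 124 gaps with both neighbours covered in both lists, 97 had equal bp in peaks, 16 had more in dbp2Δ and 11 had more in the wild type. Where the peak over the upstream gene ended inside the gap in both lists (13 gaps), its edge lay 300 bp past the gene in wild-type cells and 335 bp in dbp2Δ, and it was farther in dbp2Δ in 10 of the 13. Where the peak over the downstream gene began inside the gap in both lists (12 gaps), its edge lay 182.5 and 181 bp before the gene, and it was nearer in dbp2Δ in 8. Bridging by 1 peak does not show that transcription itself is continuous across the gap, since fragments from either side can join into a single peak.

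The longest gaps that were completely covered in both lists were those between RPL9B and SUN4 (chromosome XIV, 500257 to 501514, R64, 1258 bp) and between RPL8A and SBP1 (chromosome VIII, 34078 to 35254, 1177 bp). RPL9B and RPL8A encode proteins of the large ribosomal subunit. They were followed by the gaps between RGT2, the glucose sensor gene, and ARF2 (886 bp), between the amino acid permease genes TAT1 and BAP2 (883 bp), and between YLR287C and the chitinase gene CTS1 (854 bp). The fold enrichments of the overlapping peaks, which are the authors' values at the peak summit and rank peaks within a list, were 13.2 in wild-type cells and 15.0 in dbp2Δ for RPL9B/SUN4 and 13.3 and 14.7 for RPL8A/SBP1. They were 4.62 and 4.98 for RGT2/ARF2, 7.13 and 6.89 for TAT1/BAP2, and 3.22 and 5.62 for YLR287C/CTS1.

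Peak summits were found inside 263 tandem gaps in wild-type cells and 277 in dbp2Δ, with 266 and 278 summits (16.2% and 17.1% of all summits). Of the tandem gaps 10.2% and 10.8% held a summit, near the 9.55% and 10.6% of gaps of all orientations. The gaps with a summit in both lists numbered 122, which was 46.4% of those of the wild type and 44.0% of those of dbp2Δ. The distribution over classes differed between the lists. Gaps with only the upstream gene covered held 60 summits in wild-type cells and 105 in dbp2Δ (22.6% and 37.8% of the summits in tandem gaps), and gaps with only the downstream gene covered held 62 and 33 (23.3% and 11.9%). Gaps with both neighbours covered held 23 and 34, and gaps with neither held 121 and 106.

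In the gaps that kept their class the numbers were 32 in wild-type cells and 89 in dbp2Δ beside a covered upstream gene, and 46 and 21 beside a covered downstream gene. The summits beside a covered upstream gene lay a median of 149.5 bp past its end in wild-type cells and 196 bp in dbp2Δ. Those beside a covered downstream gene lay 120 and 191 bp before its start. Over all tandem gaps the median summit lay at 57.0% of the gap from the upstream gene in wild-type cells and at 46.8% in dbp2Δ, and 45.1% and 52.2% of summits lay in the upstream part of the gap, before its midpoint. Their peaks had median fold enrichments of 1.86 in wild-type cells and 1.98 in dbp2Δ.

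Summits also differed in what their peak touched. In the wild type 77 summits in gaps belonged to peaks that reached the end of the upstream gene but not the downstream gene, 81 to peaks that reached the start of the downstream gene only, 89 to peaks that reached both and 19 to peaks that lay wholly inside the gap. In dbp2Δ the numbers were 86, 39, 134 and 19. The peaks wholly inside a gap were short, with medians of 362 and 390 bp, and had low fold enrichments within their lists, with medians of 1.66 and 1.67. They lay in 19 gaps of each list, 7 of them shared. Examples of the shared ones are the gaps between STB5 and OYE2, which encodes a NADPH oxidoreductase, with summits 318 and 376 bp past STB5 and fold enrichments of 2.14 and 2.26, and between GCS1 and HO, the mating-type switching endonuclease gene, with summits 251 and 304 bp past GCS1 and fold enrichments of 1.91 and 1.75.

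**Figure D3:**
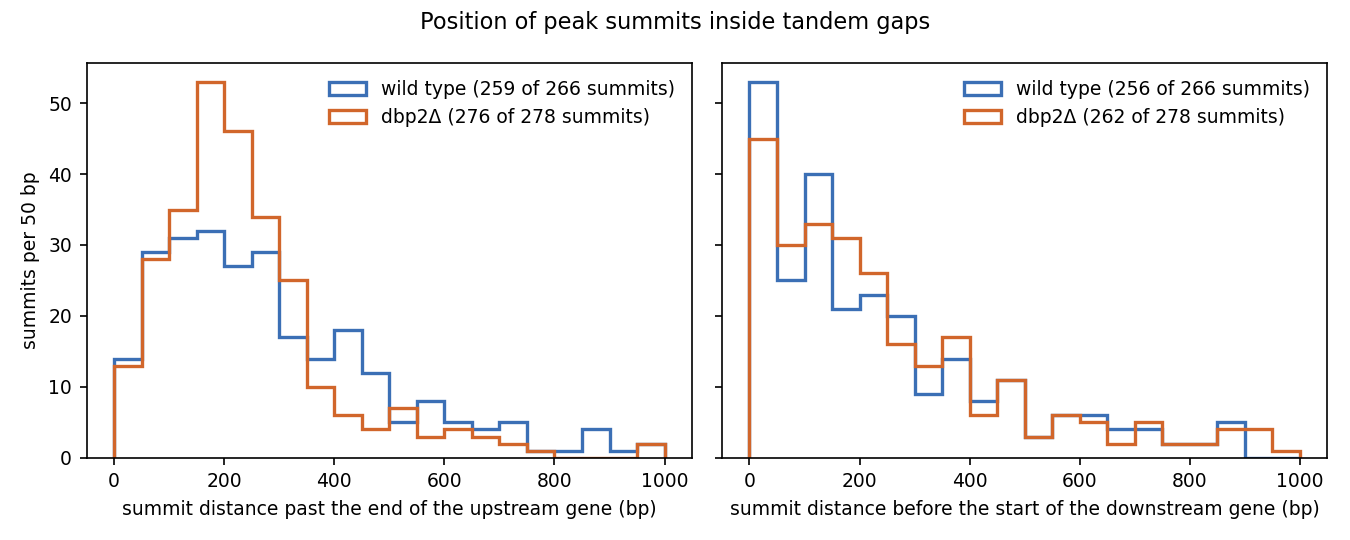
The histograms count peak summits inside tandem gaps per 50 bp, against their distance past the end of the upstream gene (left) and before the start of the downstream gene (right), up to 1000 bp, for the wild-type (266 summits) and dbp2Δ (278 summits) lists. Median distances were 248.5 and 210 bp from the upstream gene and 179.5 and 203.5 bp from the downstream gene.

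The highest peaks with a summit inside a tandem gap were mostly those past ribosomal protein genes. In the wild type they lay 436 bp past RPL8A (fold enrichment 13.3), 156 bp past RPL9B (13.2), 175 bp past RPL24B (chromosome VII, 786921 to 787311, 7.59), 59 bp past RPL42A (7.19) and, before a ribosomal protein gene, between YLR365W and RPS22B (6.96). In dbp2Δ they lay 216 bp past RPL9B (15.0), 300 bp past RPL8A (14.7), 210 bp past RPL15A (12.0), 170 bp past RPL24B (10.2) and 188 bp past RPL1B (8.97). The exception in both lists was the gap between the acid phosphatase gene PHO12 and IMD2, which encodes an IMP dehydrogenase of guanine nucleotide synthesis (chromosome VIII, 553503 to 554395). Its peak had a fold enrichment of 7.28 in the wild type, with the summit 714 bp past PHO12, and 13.1 in dbp2Δ, with the summit at 768 bp, and IMD2 itself was covered over less than 50% in both lists. IMD2 and PHO12 belong to families of near-identical genes, so the assignment of reads there is uncertain.

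Ribosomal protein genes were the upstream neighbour of 60 tandem gaps and the downstream neighbour of 56, and all of these genes were covered in both lists. Downstream of them most gaps were filled in both strains, with a median of 100% covered and complete coverage of 40 in wild-type cells and 43 in dbp2Δ. Single gaps ranged from 23.7% to 100% in the wild type and from 0% to 100% in dbp2Δ. More bp lay in dbp2Δ peaks in 17 of the 60, more in wild-type peaks in 5, and the numbers were equal in 38. The 60 gaps include those with both neighbours covered, and the 17 were 28.3% of them. Of the 36 with only the upstream gene covered in both lists, 14 (38.9%) had more bp in dbp2Δ and 2 (5.56%) more in the wild type. Among all 254 gaps of that class the shares were 46.1% and 14.2%. Summits fell inside the 60 gaps, which are of several classes, 7 times in wild-type cells and 24 times in dbp2Δ. The 254 gaps with only the upstream gene covered in both lists, a different set, held 32 and 89. In the 14 gaps in which the peak ended inside the gap in both lists, the edge lay 349 to 546 bp past the gene in the wild type (median 439 bp) and 420 to 658 bp in dbp2Δ (median 520 bp), and it was farther in dbp2Δ in 13 of the 14. The peak past RPL43B ended at 400 bp in wild-type cells and 595 bp in dbp2Δ in a gap of 914 bp before SFC1. The peak past RPP0, the ribosomal stalk gene, ended at 423 and 526 bp. RPS26A/CDC55 was an exception, with 839 bp of the gap in wild-type and 465 bp in dbp2Δ peaks. These examples were chosen after their values were seen.

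Upstream of ribosomal protein genes the lists stood the other way round. The median share of the 56 gaps in peaks was 94.8% in wild-type cells and 60.7% in dbp2Δ. More bp lay in wild-type peaks in 32 gaps, more in dbp2Δ peaks in 5, and the numbers were equal in 19. The 56 gaps include those with both neighbours covered, and the 32 were 57.1% of them. Of the 35 with only the downstream gene covered in both lists, 31 (88.6%) had more bp in the wild type and 2 (5.71%) more in dbp2Δ. Among all 271 gaps of that class the shares were 59.0% and 26.6%. Gaps are not replicates, and this difference was not tested. In the 25 gaps in which the peak began inside the gap in both lists, its edge lay 5 to 487 bp before the gene in the wild type (median 226 bp) and 157 to 265 bp in dbp2Δ (median 195 bp), and it was nearer to the gene in dbp2Δ in 23 of the 25. The gap between TCB3 and RPL6A was covered over its whole 557 bp in wild-type cells and over 201 bp in dbp2Δ, and that between SYF1 and RPL12B over 604 and 260 bp. In both, the wild-type peak ran through the whole gap, so they are not among the 25. Between FAF1 and RPL2B the values were 487 and 204 bp. In the gap between RLM1 and RPS6A the order was reversed, with 229 bp in wild-type cells and 724 bp in dbp2Δ. These examples were chosen after their values were seen, and the median edge difference over the 25 gaps was -24 bp.

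**Figure D4:**
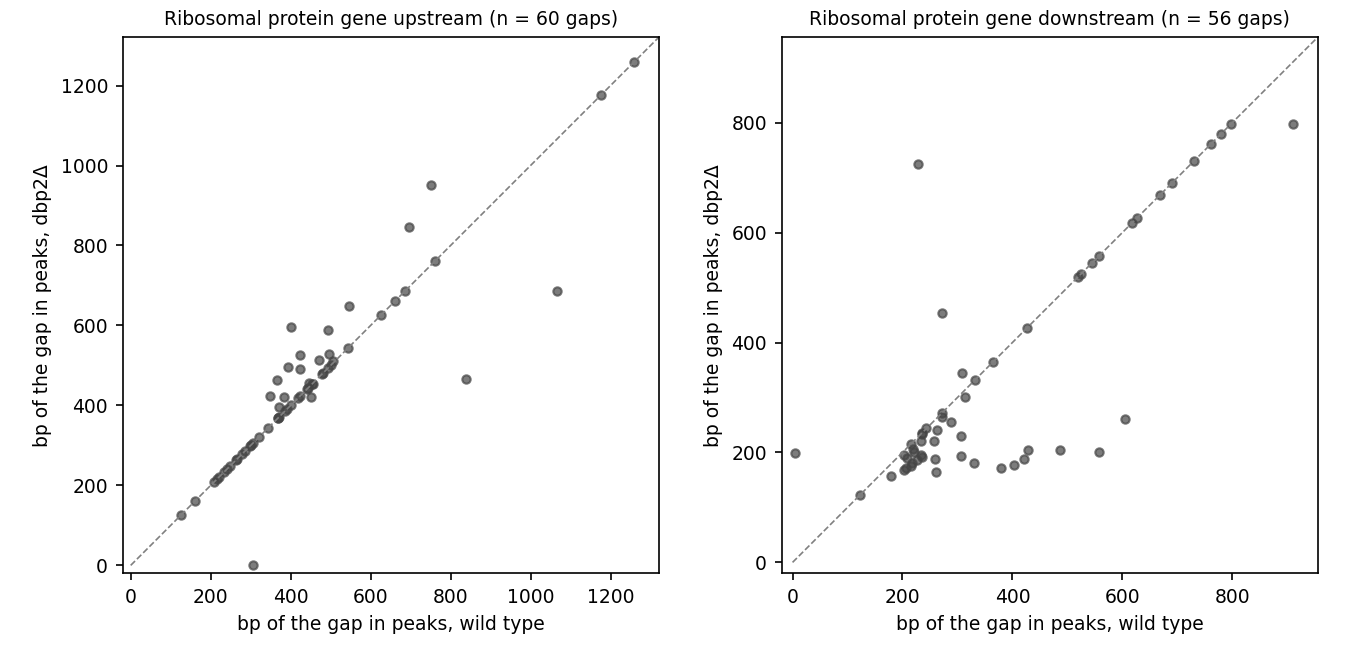
Each point is a tandem gap with a ribosomal protein gene upstream (left, 60 gaps) or downstream (right, 56 gaps), placed by the bp of the gap in wild-type peaks (x axis) and in dbp2Δ peaks (y axis), with the dashed line marking equal values. Off the line, most points lie above it on the left (17 above, 5 below) and below it on the right (32 below, 5 above).

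Translation factor genes were the upstream neighbour of 18 tandem gaps and the downstream neighbour of 19. Of the 18, 12 had equal bp in peaks and were completely covered in both lists, 5 had more in dbp2Δ and 1 had more in the wild type. The 5 include the gap between CAM1 and SGF11, where CAM1 was not covered and the 134 bp in dbp2Δ peaks lay before SGF11. Summits fell inside 0 times in wild-type cells and 7 times in dbp2Δ. A rise was also seen over all 254 gaps with only the upstream gene covered in both lists, which held 32 and 89 summits. The edge past EFT1, which encodes translation elongation factor 2, lay at 446 bp in wild-type cells and 548 bp in dbp2Δ, and that past TIF2, which encodes initiation factor eIF4A, at 459 and 499 bp. Before translation factor genes, 13 of 19 gaps had more bp in wild-type and 2 in dbp2Δ peaks, and 4 had equal numbers. Among all gaps with only the downstream gene covered in both lists, 59.0% had more in the wild type and 26.6% in dbp2Δ. For only the upstream gene the shares were 14.2% and 46.1%. The gene groups in this paragraph are small and hold gaps of several classes, and whether they differ from these shares was not tested. The gap between MRL1 and TEF1, which encodes elongation factor 1 alpha, had 579 bp in wild-type and 305 bp in dbp2Δ peaks. Glycolysis and fermentation genes were the upstream neighbour of 8 gaps, 7 of them with equal coverage. Of these 7, 3 were covered over 0% and 4 over 100% in both lists. The remaining gap, between PFK1 and PEX21, had 459 bp in wild-type and 552 bp in dbp2Δ peaks. They were the downstream neighbour of 12 gaps, of which 5 had more bp in the wild type, 2 more in dbp2Δ and 5 equal numbers. Of these 5 equal gaps, 3 were covered over 0% in both lists. Between PDX1 and TDH3, which encodes glyceraldehyde-3-phosphate dehydrogenase, 378 and 342 bp of 698 bp lay in peaks. All 378 wild-type bp lay before TDH3, whereas in dbp2Δ 267 bp lay before TDH3 and 75 bp past PDX1. Between STU2 and PDC1, the main pyruvate decarboxylase gene, the values were 612 and 955 bp of 955 bp. Of the wild-type bp, 258 lay past STU2 and 354 before PDC1. Histone genes bordered 4 gaps, all as the upstream gene. Past HHF1, a histone H4 gene, the edge lay at 622 and 757 bp, and past HTZ1, the H2A.Z gene, at 236 and 219 bp.

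Coverage of at least 50% was shared by 540 gaps, 78.7% of those of the wild type and 81.3% of those of dbp2Δ. It was found in the wild type only for 146 gaps and in dbp2Δ only for 124, which were 5.67% and 4.81% of the tandem gaps against 4.84% and 5.55% of all gaps. Of these, 76 were covered over 0% in dbp2Δ and 70 over 0% in the wild type. Among the 76, the gap with the highest wild-type fold enrichment lay between RPL7B and OXR1 (chromosome XVI, 174703 to 175042). It had 307 of 340 bp in a wild-type peak (10.6), while in dbp2Δ the peak covered 77.6% of RPL7B and did not reach its end. Next came the gap between JEN1 and URA1, which encodes dihydroorotate dehydrogenase, where the 692 of 1130 bp nearest to URA1 were covered (5.38). After it came the gap between SNL1 and BAR1, the alpha-factor protease gene, with 408 of 408 bp (2.82). The gaps between FYV5 and KRR1 (143 bp, 2.70), between BIK1 and the histidine synthesis gene HIS4 (168 of 265 bp, 2.67) and between AXL1 and the copper transporter gene CTR1 (321 of 536 bp, 2.58) followed.

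The gaps covered in dbp2Δ only with the highest fold enrichments were each completely covered by a peak whose summit lay outside the gap. They lay between YGK1 and SEH1, a nuclear pore gene (393 bp, fold enrichment 15.5), between SCP1 and the checkpoint gene RAD17 (233 bp, 12.9), and between CTR2 and YHR175W-A (116 bp, 9.99). Those between OTU2 and YLF2 (115 bp, 8.72), between YLR415C and PUN1 (114 bp, 7.73) and between NPP1 and YCR025C (254 bp, 5.26) came next. In the wild type YGK1 was covered over 97.4% of its length and CTR2 over 53.7%, with no peak in the gap. The values are those of the highest peak that overlapped any part of the gap and need not describe the gap itself.

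Gaps whose neighbours were both covered over less than 50% could still hold Pol II peaks. At least 50% of the gap was covered in 124 of 1719 such gaps in wild-type cells and 116 of 1711 in dbp2Δ. The gap between LTV1, a small-subunit assembly factor gene, and MRP8 (chromosome XI, 178173 to 178514, 342 bp) was completely covered in both lists, with summits 108 and 83 bp past LTV1 and fold enrichments of 3.63 and 4.46. The gap between ERV46 and CDC24, the exchange factor gene for Cdc42 (chromosome I, 62564 to 62839), was completely covered in both as well, with summits 62 and 80 bp past ERV46 and 2.77 and 3.37. The gap between RAD34 and the ubiquitin ligase gene PIB1 had 286 and 336 of 353 bp in peaks (2.85 and 3.62). Before HOG1, the osmotic stress kinase gene, 409 of 409 bp were covered in both (4.33 and 5.78), with HOG1 covered over 49.3% in wild-type cells and 100% in dbp2Δ. The other high wild-type peaks of this class lay past SRD1 (3.30), DSD1 (2.97) and TAX4 (2.85). Between ORC4, an origin recognition complex gene, and SGV1, the gap had 0 bp in wild-type cells and all 292 bp in dbp2Δ (3.46).

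Among gaps that kept their class, the largest differences towards dbp2Δ were 1151 bp between FAA1 and HSH49 (0 bp in the wild type, fold enrichment 1.81 in dbp2Δ), 788 bp between SLY41 and the riboflavin transporter gene MCH5 (194 and 982 bp), 703 bp between ETT1 and RSB1 (170 and 873 bp) and 527 bp between PRR2 and GDH2 (0 and 527 bp, 1.58). The largest towards the wild type lay between AYR1 and SIM1 (1053 and 17 bp), between POP2 and BRE5 (757 and 66 bp), before the polyubiquitin gene UBI4 past ENT4 (567 and 0 bp), and between PAU13 and the siderophore transporter gene ARN2 (524 and 0 bp). The highest wild-type peaks that overlapped these gaps had fold enrichments of 1.96, 14.0, 2.03 and 1.54 in this order, against a median of 1.99 over the whole list. Between POP2 and BRE5, 624 of the wild-type bp lay past POP2 and 133 before BRE5, and the 66 bp of dbp2Δ lay before BRE5. The value of 14.0 belonged to the peak before BRE5, whereas the wild-type summit inside the gap belonged to the peak past POP2. PAU13 belongs to a multigene family with near-identical members.

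Of the textbook tandem pairs, PMA1/LEU1 was covered over 995 of 1257 bp in wild-type cells and 900 bp in dbp2Δ (chromosome VII, 478653 to 479909). The peak past PMA1 ended at 857 bp in wild-type cells and 900 bp in dbp2Δ, and the 138 bp before LEU1 lay in a wild-type peak only. PMA1, the plasma membrane proton pump gene, was covered over 100% in both lists, and LEU1 of leucine synthesis over 100% and 39.4%. YPT1/ACT1, which leads into the actin gene, was covered over its whole 669 bp in both lists (4.87 and 3.67), with both genes covered. GAL10/GAL7, whose genes are repressed in glucose, had 0 of 725 bp in peaks in either list. Next to the deleted gene, the gap between RPC19 and DBP2 (439 bp) was completely covered in wild-type cells and over 201 bp in dbp2Δ. The gap between the deleted HIS3 and the helicase gene DED1 had 298 and 268 of 302 bp in peaks.

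The pattern was spread over strands and chromosomes. Among gaps with only the upstream gene covered in both lists, 62 W gaps had more bp in dbp2Δ and 24 more in the wild type, and the C gaps numbered 55 and 12. Among those with only the downstream gene covered, 39 W gaps had more in dbp2Δ and 85 more in the wild type, and the C gaps numbered 33 and 75. The share of bp in peaks was higher in dbp2Δ for upstream-only gaps on 13 of 16 chromosomes and lower in dbp2Δ for downstream-only gaps on 14 of 16. Chromosomes of 1 pooled list are not replicates.

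From 200 bp upward, shorter gaps were filled completely more often. In upstream-only gaps of 200 to 299 bp, 79.2% were completely covered in wild-type cells and 87.5% in dbp2Δ (48 gaps), in those of 300 to 499 bp 40.5% and 53.4% (116 gaps), and in those of 500 to 999 bp 17.5% and 25.4% (63 gaps). In downstream-only gaps the shares were 40.7% and 23.7% (59 gaps), 22.7% and 11.3% (97 gaps), and 17.3% and 8.64% (81 gaps). In the 7 upstream-only gaps of 100 to 199 bp the order was the opposite, with 3 completely covered in wild-type cells and 1 in dbp2Δ. Of the 44 gaps longer than 2000 bp, the longest lay between FLO5 and YHR212W-A (10122 bp), with no peak in either list. Just below the length limit, 7 tandem gaps measured 90 to 99 bp, of which 2 were covered over at least 50% in either list, and just above it 9 measured 100 to 109 bp, of which 1 was. Just below the 50% limit for a covered upstream gene the gap had a median coverage of 84.1% in wild-type cells and 55.6% in dbp2Δ (17 gaps with 45 to 50% of the gene covered in each), and just above it 100% and 79.2% (22 and 19 gaps with 50 to 55%). For a covered downstream gene the medians just below the limit were 39.4% and 0% (20 and 19 gaps), and just above it 42.6% and 51.8% (19 and 17 gaps).

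Convergent gaps, where both neighbours point into the gap, and divergent gaps, where both point away, show the 3′ and 5′ sides separately. To set them beside tandem gaps, the unbroken run of peak from a covered gene into the gap was measured where the other neighbour was uncovered, in both lists. On the 3′ side the run took up 61.3% of the bp of tandem gaps in wild-type cells and 67.5% in dbp2Δ (254 sides), and 79.8% and 84.2% in convergent gaps (271 sides), which were shorter, with a median of 269 bp against 436.5 bp. The run was longer in dbp2Δ in 116 tandem and 61 convergent cases and shorter in 37 and 13. On the 5′ side it took up 46.7% and 39.5% in tandem gaps (271 sides) and 27.2% and 18.6% in divergent gaps (292 sides). It was longer in dbp2Δ in 70 tandem and 42 divergent cases and shorter in 160 and 215. Summits inside gaps numbered 141 in wild-type cells and 244 in dbp2Δ for the 1269 convergent gaps, 95 and 36 for the 1382 divergent gaps, and 266 and 278 for the tandem gaps, in which both kinds of side occur. With no replicate values, whether tandem gaps differ from the other orientations was not tested.

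**Figure D5:**
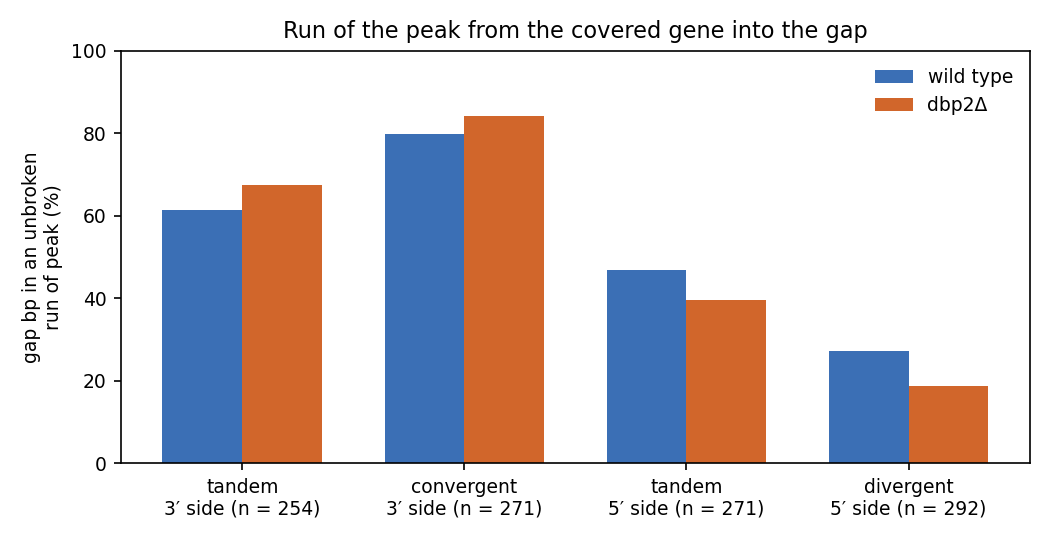
Bars give the percent of gap bp in an unbroken run of peak from the covered gene, over gaps with exactly 1 neighbour covered in both lists, for the 3′ side of tandem and convergent gaps and the 5′ side of tandem and divergent gaps, without error bars because each strain has 1 pooled list. The dbp2Δ bar is the higher on the 3′ sides (67.5% against 61.3% in tandem gaps) and the lower on the 5′ sides (39.5% against 46.7%).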

How the data were processed

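Per the file headers, the authors ran MACS 2.1.2 on paired-end fragments, with the 3 immunoprecipitates of a strain pooled against its 3 pooled inputs, a q-value cutoff of 0.05 and at most 1 duplicate per position. Bowtie2 2.3.3.1, Trimmomatic 0.36 and build R64 are named in the submitters' processing notes. For alignment settings and multiply mapped reads, the choice is not given in the sources used here. Start, end and summit were used as deposited, counted from 1. The deposited fold enrichment, a ratio of immunoprecipitate over local background, described and filtered peaks within a list. The deposited −log10 q-values served only as a stricter filter, and the deposited pileup signal was not used.

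Gaps were built in Python 3.11.15 from the RefSeq gene table of R64 (6431 nuclear genes, 6002 protein-coding). The table lists no transposons, centromeres or origins, so a gap can hold these. The sequences of the gaps were not analysed here, so a planned count of motifs was not made. A gap or gene counted as covered from 50% of its length. The calls were checked on simulated peaks and against bedtools. Medians are over gaps, which share peaks with their neighbours and are not replicates. Named gaps were the 6 highest with a summit inside and the 6 highest covered in 1 list only, per list, the 5 longest completely covered, up to 5 highest per list with neither neighbour covered, the 4 largest differences in each direction, and textbook pairs. CYC1/UTR1, planned as such a pair, is convergent. The members, lists and rules were chosen with earlier results of these data known.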

Additional observations from a re-analysis of the deposited data

How the results depend on the processing

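With 20 results recomputed under 9 alternatives, 143 of 156 values stayed close to the reported one (a count within 1.5 times, a median or share inside its 95% binomial interval over gaps), and neither share of differing gaps crossed 50%. With peaks of −log10 q of at least 5, the order of the lists turned for 2 pairs of counts: 635 wild-type and 637 dbp2Δ gaps were covered over at least 50% (reported 686 and 664), and 128 were so in the wild type only and 130 in dbp2Δ only (reported 146 and 124). The alternatives that leave out gaps beside deleted genes or over 2000 bp, and the shares of differing gaps, were added after seeing the data. Peaks of at least 2-fold enrichment alone gave 110 wild-type and 135 dbp2Δ summits in tandem gaps. They also gave a median coverage of 91.1% beside a covered upstream gene in the wild type, runs of 420 and 465 bp past the upstream gene, a start 258 bp before the downstream gene in the wild type, and 25.3% (main value 31.0%) of differing downstream-only gaps more covered in dbp2Δ. With a gene counted as covered from 80%, the median coverage was 92.9% upstream-only and 53.3% downstream-only in the wild type and 46.7% downstream-only in dbp2Δ, and the wild-type run past the upstream gene was 401 bp. With a gap counted as covered from 90%, 449 wild-type and 440 dbp2Δ gaps were covered. The cause of these differences was not tested beyond the narrower choice of peaks, genes or gaps itself. The share of differing upstream-only gaps more covered in dbp2Δ was 76.5% and ranged from 75.4% to 78.0%. No paired analysis was possible because each list pools the 3 replicates of its strain, and leaving out single replicates was not possible for the same reason. The depth behind a gap is known only for the pooled libraries.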
